A study of Mus musculus with 4 samples.

Results

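Augmin is a protein complex of 8 subunits, encoded in the mouse by the genes Haus1 to Haus8. Those 8 genes, of 55453 in the count table, are described here in mouse oocytes, and they were taken by symbol. The set was chosen on the knockdown against control values of these same libraries, in which Haus1 had stood out as higher, and the values of the other subunits are set beside it. The difference of Haus1 itself is therefore given as a description and supports nothing. Messenger RNA was sequenced from 2 libraries of oocytes with the genotype label Parp12 knockdown and from 2 libraries of control oocytes with the genotype label WT. All 4 libraries came from oocytes that were separated directly from the ovary, and the design text places the oocytes at the germinal vesicle (GV) stage, the prophase arrest before meiotic maturation. Parp12 encodes an ADP-ribosyltransferase of the PARP family. The reagent of the knockdown, the strain and age of the mice, and the oocytes or animals behind each library are not stated in the labels.

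Augmin binds to the side of an existing microtubule and recruits the gamma-tubulin ring complex there, so that a new microtubule grows as a branch. It was named for this augmentation of spindle microtubules, and spindles that lack it have fewer microtubules and poorly held kinetochore fibres. In structures of human and frog augmin, the products of Haus1, Haus3, Haus4 and Haus5 form one subcomplex (III), a long scaffold, and those of Haus2, Haus6, Haus7 and Haus8 form the other (II), which touches the microtubule and the gamma-tubulin ring complex. Mouse oocytes have no centrioles and build the spindle from many acentriolar organising centres, and loss of Haus6 in mouse oocytes is known to disturb spindle assembly. A GV oocyte has not yet built its spindle.

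Parp12 was almost absent from the knockdown libraries, with 32 and 86 counts there, against 14279 and 9419 counts in the control libraries. Its log2 fold change was -7.51 (SE 0.34), and edgeR's quasi-likelihood test gave an adjusted p of 1.27e-07. The call was lost with limma-voom, where the adjusted p was 0.28. Library totals lay between 35805122 and 45230773 counts. All 10 oocyte markers were detected in every library, from Gdf9, the most abundant, with 5996 ± 71.2 CPM (SD, n = 2) in knockdown and 5658 ± 87.0 CPM (SD, n = 2) in control oocytes; CPM are counts per 1000000 counts of the library after TMM scaling. The lowest, Figla, had 29.2 and 20.3 CPM in knockdown and 34.7 and 35.4 CPM in control libraries, at a log2 fold change of -0.48 (SE 0.24, adjusted p 0.835 by edgeR's quasi-likelihood test). Most of the list went the other way, with 8 of 10 log2 fold changes above 0, against 50.4% of all tested genes. Both knockdown libraries lay above both controls for 4 of the 10, where 17.9% of all tested genes did so. They lay below both for 1, Figla, where 17.1% did. None of the 10 passed edgeR's test, where 0.0063% of all tested genes did. By edgeR, 2 had an unadjusted p under 0.05, both as higher, against 5.51% of all tested genes and 2.94% as higher. DESeq2 called 1, Zp1, as higher, at an adjusted p of 0.0315. It called 1.86% of all genes with an adjusted p, 1.07% as higher. Of 14 granulosa and cumulus markers, 6 (Amh, Amhr2, Foxl2, Inhba, Inhbb and Fst) had 0 counts throughout, and the list summed to 134.5 and 153.8 CPM in knockdown and 167.4 and 154.3 CPM in control libraries. Most of that sum was 1 gene, Nr5a2, with 90.8 and 108.5 CPM in knockdown and 118.5 and 102.5 CPM in control libraries, which overlapped. Cyp19a1 had 26.6 and 23.8 CPM in knockdown and 24.9 and 29.1 CPM in control libraries, which also overlapped. Kitl had 15.3 and 13.7 CPM in knockdown and 21.8 and 18.0 CPM in control libraries. It was the 1 of 5 tested genes of this list with both knockdown libraries below both controls, and 0 lay above. The 10 theca, stroma and blood markers summed to 1.34 and 1.79 CPM in knockdown and 3.32 and 5.96 CPM in control libraries. Of 3 tested genes there, 2 lay below both controls and 0 above, against 17.1% and 17.9% of all tested genes. Cyp11a1 had 11 and 5 counts in knockdown and 70 and 70 in control libraries (adjusted p 0.835 by edgeR's quasi-likelihood test). Star had 10 and 20 counts in knockdown and 40 and 135 in control libraries. The sums of both somatic lists were lower in the knockdown libraries, the granulosa and cumulus sum by little. The part of these lists in the results that follow was not tested. In such bulk libraries, fewer cells of a type and less RNA per cell cannot be told apart.

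The HAUS genes lie on 8 chromosomes of mm10 (GRCm38), and all 8 had the same position in GENCODE release M21. Haus1 (ENSMUSG00000041840.8) spans 77757567 to 77773886 on the minus strand of chromosome 18. Haus4 (ENSMUSG00000022177.9) spans 54541785 to 54554616 on the minus strand of chromosome 14, and Haus3 (ENSMUSG00000079555.2) spans 34153880 to 34169527 on the minus strand of chromosome 5. Haus2 (ENSMUSG00000027285.13), the only one on the plus strand, spans 120609383 to 120621560 of chromosome 2. Haus5, Haus6, Haus7 and Haus8 lie on chromosomes 7, 4, X and 8. Counting took in all annotated exons of a gene, and these differ in what they hold. For Haus1, only 18.0% of its 7167 exonic nucleotides belong to a protein-coding transcript, because a transcript of 6882 nucleotides with a retained intron is also annotated. The share was 38.1% for Haus8, 58.9% for Haus3, 63.3% for Haus5 and 76.6% for Haus4, and at least 95.3% for Haus2, Haus6 and Haus7. Counts over Haus1 can thus come from spliced or from intron-containing RNA, and the table does not separate them.

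The subunit RNAs differed widely in level, although the proteins join in a single complex. Levels between genes are compared as CPM per kilobase (kb) of exonic length, averaged over the 4 libraries. Haus4 had the highest level, 134.2 CPM per kb, and lay at the percentile 98.0 of all 15868 tested genes. Haus3 followed with 80.8 CPM per kb and lay at the percentile 96.5. Both encode parts of subcomplex III. The next gene, Haus7, had 14.6 CPM per kb. Haus6, Haus8 and Haus1 had 8.94, 8.12 and 6.16 CPM per kb, and the ranges over the 4 libraries overlapped between Haus6 and Haus8 and between Haus8 and Haus1. Haus5 and Haus2 were lowest, at 1.68 and 1.279 CPM per kb, with overlapping ranges, and lay at the percentiles 38.9 and 34.5. Haus4 exceeded Haus2 by a factor of 105. The other neighbours in this order had ranges that did not overlap.

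**Figure D1:**
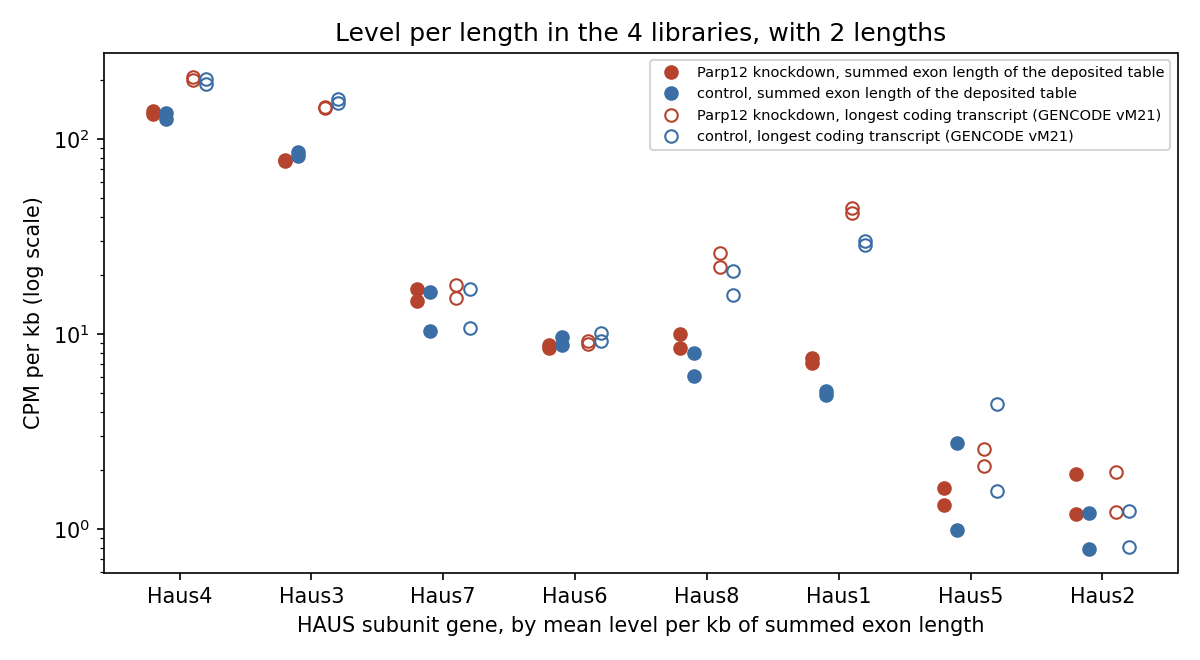
Level of each HAUS gene as CPM per kb on a log axis, with filled points for the summed exon length of the deposited table and open points for the longest coding transcript, and 1 point per library (red, Parp12 knockdown; blue, control). Haus4 and Haus3 are highest and Haus5 and Haus2 lowest on both lengths, whereas Haus1 moves up with the shorter length.

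The place of Haus1 in this order depended on the length used, an alternative chosen after the data were seen. Divided by the longest coding transcript of each gene, 1226 nucleotides for Haus1, the level of Haus1 was 36.02 CPM per kb and ranked 3rd, against 6th by summed exon length. Haus4 with 201.1 and Haus3 with 150.9 CPM per kb stayed on top, and Haus5 with 2.66 and Haus2 with 1.31 CPM per kb stayed at the bottom. Only 4 of the 8 genes kept their rank, namely Haus4, Haus3, Haus5 and Haus2. The value for Haus5 has a further limit: 1952 of its 3455 exonic nucleotides, 56.5%, are also exons of Gm21982 on the same strand, which had 0 counts in all 4 libraries. With 0 counts for Gm21982, no read in the shared exons was counted for both genes. Whether such reads were counted for Haus5 is not stated in the labels. If they were left out, its level per kb is too low on either length, and so is its place beside Haus2.

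The promoters of the highest gene, Haus4, and of the 2 lowest are shown because they bracket this range of levels. They are RefSeq windows on GRCm38.p6, from 250 bases before to 50 bases after a transcription start, 5′ to 3′ on the gene's strand. Capitals mark matches on either strand to 3 motifs. These are the CCAAT box, searched as CCAAT itself, the GC box, searched as GGGCGG, and the TATA box, searched as TATAAA. The windows are chr14:54554312-54554611 on the minus strand for Haus4, chr7:30664945-30665244 on the minus strand for Haus5 and chr2:120609132-120609431 on the plus strand for Haus2.
Haus4 promoter: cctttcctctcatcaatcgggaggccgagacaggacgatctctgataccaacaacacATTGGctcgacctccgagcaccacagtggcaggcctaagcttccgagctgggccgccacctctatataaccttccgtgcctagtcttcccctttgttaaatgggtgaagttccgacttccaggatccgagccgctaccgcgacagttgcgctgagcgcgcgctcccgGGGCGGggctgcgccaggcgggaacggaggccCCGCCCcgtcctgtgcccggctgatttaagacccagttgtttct
Haus5 promoter: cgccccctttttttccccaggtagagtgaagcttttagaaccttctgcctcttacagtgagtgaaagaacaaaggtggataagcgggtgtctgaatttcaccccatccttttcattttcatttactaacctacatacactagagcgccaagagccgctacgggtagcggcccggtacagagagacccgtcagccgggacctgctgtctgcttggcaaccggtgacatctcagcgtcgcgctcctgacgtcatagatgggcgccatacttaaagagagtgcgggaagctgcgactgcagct
Haus2 promoter: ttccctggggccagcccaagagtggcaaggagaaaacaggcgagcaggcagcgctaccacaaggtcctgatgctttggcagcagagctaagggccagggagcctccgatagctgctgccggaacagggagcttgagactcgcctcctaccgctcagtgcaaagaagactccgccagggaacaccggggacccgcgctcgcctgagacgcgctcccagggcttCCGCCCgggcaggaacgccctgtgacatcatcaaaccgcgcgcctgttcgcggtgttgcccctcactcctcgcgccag

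The window of Haus4 holds 1 match to the CCAAT box and 2 to the GC box. That of Haus2 holds 1 match to the GC box, and that of Haus5 holds no match to any of the 3 motifs. The TATA box was in none of the 6 HAUS windows used. Over 32817 promoter windows of the same length, 37.4% held the CCAAT box, 35.6% the GC box and 13.6% the TATA box. Motifs were counted whether or not they overlapped another. Haus4 had 25 CpG dinucleotides, and Haus5 and Haus2 had 17 and 23, against a median of 7 over all windows. The windows of Haus6, Haus7 and Haus8 held 1, 1 and 0 matches to the CCAAT box and 0, 1 and 5 to the GC box. They held 17, 18 and 37 CpG dinucleotides. Haus8 was thus above Haus4 in GC box matches and in CpG dinucleotides, at a lower level per kb. The starts used for Haus4 and Haus8 lie 255 and 344 bases inside the ends of these genes in the count table.

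Within subcomplex III, Haus1 was higher in both knockdown libraries. It had 51.0 and 54.0 CPM in knockdown oocytes, against 35.0 and 36.6 CPM in control oocytes. The groups did not overlap, and the libraries of a group lay close together. The means were 52.5 ± 2.12 CPM in knockdown and 35.8 ± 1.14 CPM in control oocytes (SD, n = 2 each), a log2 fold change of 0.55 (SE 0.18, 95% interval 0.16 to 0.95), or 1.47-fold. It did not pass edgeR's quasi-likelihood test over all genes, with an adjusted p of 0.835, and DESeq2 gave an adjusted p of 0.00977. Over the alternatives its adjusted p ran from 0.00977 to 0.994. Haus1 was chosen for this difference, so nothing is concluded from these values.

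Haus3 and Haus4, the abundant scaffold subunits, had smaller estimates on either side of 0. Haus3 had 303.1 and 299.8 CPM in knockdown oocytes, against 318.2 and 330.2 CPM in control oocytes. Both knockdown values lay below both controls, but by little, for a log2 fold change of -0.10 (SE 0.08, 95% interval -0.28 to 0.07). Haus4 had 319.8 and 331.2 CPM in knockdown oocytes, against 302.6 and 322.8 CPM in control oocytes. The groups overlapped, at a log2 fold change of 0.06 (SE 0.08, 95% interval -0.12 to 0.23). Their adjusted p by edgeR's quasi-likelihood test was 0.898 and 0.957.

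Haus5, the low member of subcomplex III, was too variable to place. It had 239 and 165 counts in knockdown libraries, or 5.61 and 4.61 CPM, against 154 and 395 counts in control libraries, or 3.44 and 9.58 CPM. The control libraries lay on either side of both knockdown libraries. Its log2 fold change was -0.31 (SE 0.58), with a 95% interval of -1.56 to 0.94, and edgeR's quasi-likelihood test gave it an adjusted p of 0.964. Control replicate 2 set this direction, since the value was 0.58 without it and -0.89 without control replicate 1.

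In subcomplex II, Haus8 was the one gene whose groups did not overlap. Human HAUS8, also called Hice1, binds the microtubule through its N-terminal region. Haus8 had 44.5 and 52.6 CPM in knockdown oocytes, against 32.0 and 42.3 CPM in control oocytes. Both knockdown values were above both controls, but knockdown replicate 1 exceeded control replicate 2 by little. Its log2 fold change was 0.38 (SE 0.20, 95% interval -0.06 to 0.83) and the adjusted p was 0.835 in edgeR's quasi-likelihood test. Leaving out a library moved it between 0.19, without control replicate 1, and 0.59, without control replicate 2.

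Haus6 encodes the large subunit that contacts NEDD1 of the gamma-tubulin ring complex in human cells. It had 54.8 and 56.8 CPM in knockdown oocytes, against 56.8 and 62.7 CPM in control oocytes. Those values overlapped narrowly, at a log2 fold change of -0.10 (SE 0.16, 95% interval -0.45 to 0.25). Its adjusted p was 0.961 by edgeR's quasi-likelihood test.

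Haus7 and Haus2 were less precisely measured. Haus7, on the X chromosome, had 24.5 and 21.2 CPM in knockdown oocytes, against 14.8 and 23.6 CPM in control oocytes. Only control replicate 1 stood apart, and without it the log2 fold change was -0.04, against 0.27 (SE 0.29, 95% interval -0.37 to 0.90) with all 4 libraries. Haus2, also known as Cep27, had 164 and 221 counts in knockdown libraries, or 3.85 and 6.17 CPM, against 114 and 161 counts in control libraries, or 2.54 and 3.90 CPM. The groups overlapped, at a log2 fold change of 0.62 (SE 0.62, 95% interval -0.71 to 1.95). It was 0.27 without knockdown replicate 2 and 0.33 without control replicate 1, but 0.95 without either of the others. The adjusted p by edgeR's quasi-likelihood test was 0.943 for Haus7 and 0.932 for Haus2.

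**Figure D2:**
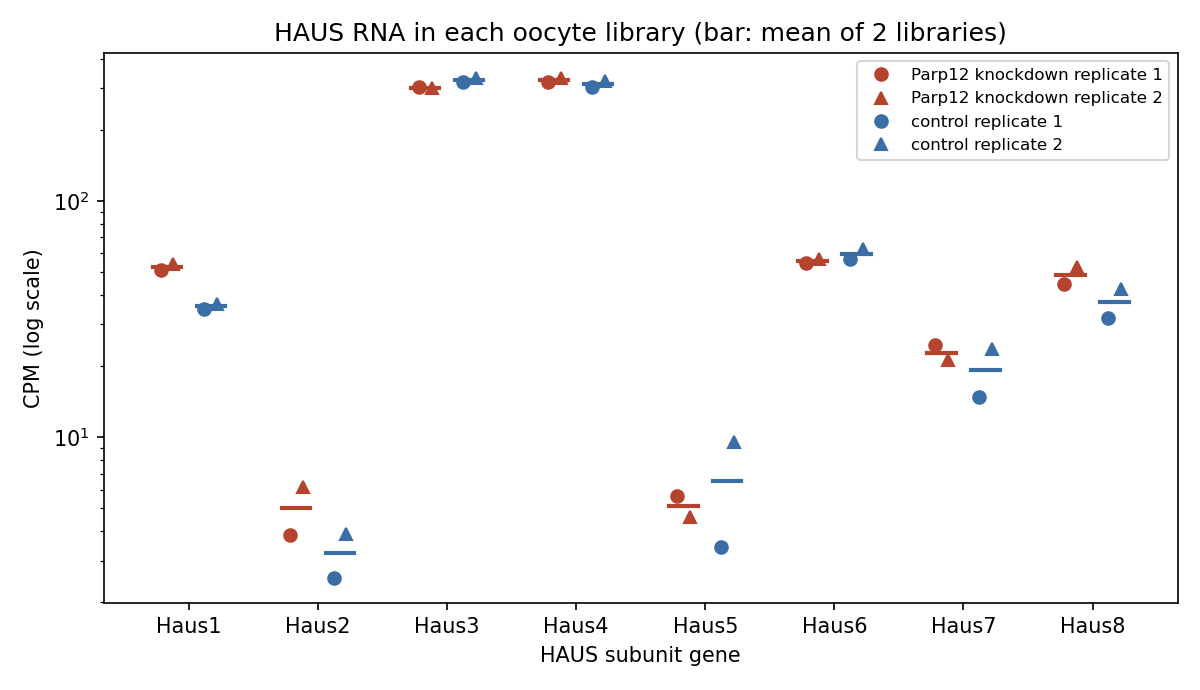
CPM of the 8 HAUS genes on a log axis in each library (red, Parp12 knockdown; blue, control; circles, replicate 1; triangles, replicate 2), with bars at the mean of 2 libraries. The groups of Haus1, Haus8 and Haus3 do not overlap, and control replicates 1 and 2 lie far apart for Haus5 and Haus7.

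Set together, 0 of the 8 HAUS genes passed edgeR's test, where 0.0063% of all tested genes did (Parp12 alone), and DESeq2 called 1, Haus1, where it called 1.86% of all genes with an adjusted p, 1.07% of such genes as higher. By edgeR, 1 HAUS gene, Haus1 itself, had an unadjusted p under 0.05, against 5.51% of all genes, 2.94% as higher and 2.57% as lower. edgeR called 0% of genes higher once p was adjusted. limma-voom called 0 genes in all, 0% of those tested, and 4.71% had an unadjusted p under 0.05 there. Both knockdown libraries lay above both controls for 2 of 8 HAUS genes (Haus1 and Haus8), where 17.9% of all genes did so, and below them for 1 (Haus3), where 17.1% did. Log2 fold changes were above 0 for 5 of 8 HAUS genes and for 50.4% of all genes. Without Haus1, which was selected as higher, 4 of 7 were above 0 and 3 below, and the groups did not overlap for 1 in each direction. Their median was 0.16 over the 8 genes and 0.06 over the 7 without Haus1, against 0.00 over all tested genes. The median over the 8 moved with the control libraries, and was 0.58 without control replicate 2 and -0.013 without control replicate 1.

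The partners of Haus1 were measured with unequal precision. All 7 had 95% intervals that held 0. The SE of the log2 fold change ran from 0.08 for Haus3 and Haus4 to 0.62 for Haus2. The intervals of 6 of the 8 genes, all but Haus2 and Haus5, excluded a 2-fold difference in either direction. Those of 7416 of all 15868 tested genes did so. Whether any of the 7 differed from Haus1 was not tested, since Haus1 was selected for its value.

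**Figure D3:**
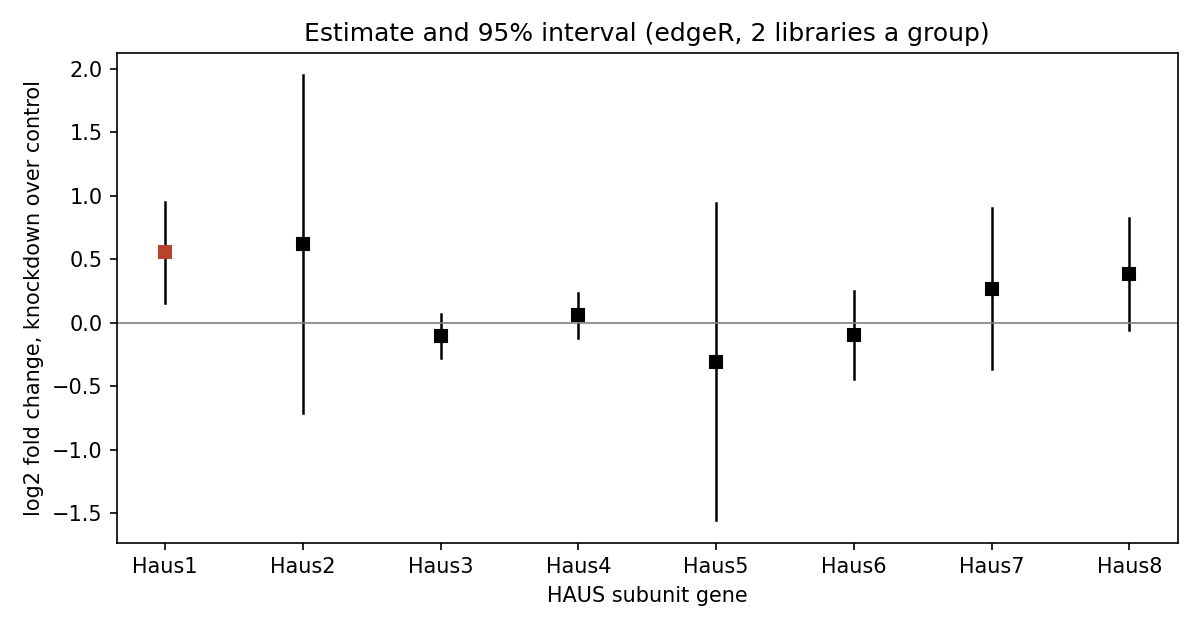
Log2 fold change (knockdown over control) of each HAUS gene with its 95% interval from edgeR, 2 libraries a group; Haus1 (red) was selected for its value. The intervals of the other 7 genes (black) cross 0, and those of Haus2 and Haus5 are widest.

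Haus1 made up a small part of augmin RNA in both groups. Summed over the 8 genes, knockdown libraries had 807.2 and 826.4 CPM, and control libraries had 765.4 and 831.6 CPM, so the sums overlapped. By CPM per kb of summed exon length, Haus1 made up 2.77% and 2.89% of the total in knockdown libraries, against 2.02% and 1.93% in control libraries. On the coding length its share was 9.42% and 9.75% in knockdown and 6.94% and 6.68% in control libraries. Haus4 took 52.4% and 53.4% of the summed level per kb in knockdown libraries and 52.7% and 51.4% in control libraries. The shares of Haus3 were 30.5% and 29.7% in knockdown and 34.1% and 32.3% in control libraries. Subcomplex III summed to 684.6 ± 7.12 CPM in knockdown and 679.2 ± 28.3 CPM in control oocytes, and subcomplex II summed to 132.1 ± 6.47 CPM in knockdown and 119.3 ± 18.5 CPM in control oocytes (SD, n = 2 each).

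Of 5 genes that share exons with a HAUS gene, 4 were tested and did not pass, and Gm21982, with 0 counts, was not tested. Haus1 starts head to head with Atp5a1, which encodes the alpha subunit of mitochondrial ATP synthase, and the exons of both share 129 nucleotides on opposite strands. Atp5a1 had 512.4 and 566.8 CPM in knockdown oocytes, against 518.2 and 536.6 CPM in control oocytes. The groups overlapped, with a log2 fold change of 0.03 (SE 0.07, 95% interval -0.13 to 0.19). Haus2 shares 138 exonic nucleotides with Lrrc57 and Haus8 shares 116 with Myo9b, both on opposite strands, and Haus3 shares 108 with Poln, a DNA polymerase gene, on the same strand. Log2 fold changes were -0.26 (SE 0.22) for Lrrc57, 0.02 (SE 0.12) for Myo9b and -0.18 (SE 0.47) for Poln. The labels do not say whether strand was used in counting. Of stretches of 50 nucleotides in HAUS transcripts, 53.1% for Haus5 and at most 5.83% for the other 7 genes also occur in transcripts of other genes.

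The machinery that augmin works with was covered by 3 lists, and none of their genes passed edgeR's test or was called by DESeq2 or limma-voom. At an unadjusted p under 0.05, edgeR had 0, 0 and 1 gene in them, against 5.51% of all genes tested, which 1 gene over the 3 lists together does not exceed. Adjusted, edgeR called 0.0063% of all genes and DESeq2 1.86%. In the order in which the lists follow, both knockdown libraries lay below both controls for 3 of 10, 5 of 12 and 4 of 9 genes. Over all tested genes, 17.1% did so. They lay above both controls for 1, 1 and 2 genes, where 17.9% of all tested genes did. Log2 fold changes were above 0 for 50.4% of all tested genes. Whether the lists depart from these shares was not tested. The gamma-tubulin ring complex, the template from which microtubules grow, had 10 of 10 genes tested, with 4 log2 fold changes above 0 and 6 below and a median of -0.07. Tubgcp2, a core ring subunit and the member with the smallest p, had 59.6 and 67.8 CPM in knockdown oocytes, against 72.3 and 71.0 CPM in control oocytes. Its groups did not overlap, and the log2 fold change was -0.17 (SE 0.15, adjusted p 0.916 by edgeR's quasi-likelihood test). Per kb, levels ran from 0.225 CPM for Tubgcp6 to 109.4 CPM for Tubg2. Nedd1, the adaptor that augmin binds, had 205.6 and 183.2 CPM in knockdown oocytes, against 206.8 and 210.7 CPM in control oocytes; it was singled out for that role after the values were seen.

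Factors of branching and of the Ran pathway, which releases spindle factors around chromosomes, had 12 of 12 genes tested and a median of -0.05, with 3 above 0 and 9 below. The intervals of 11 excluded a 2-fold difference, as did those of 7416 of all 15868 tested genes. Aurka, the kinase Aurora A and the member with the smallest p, had 346.0 and 353.0 CPM in knockdown oocytes, against 395.4 and 361.2 CPM in control oocytes. Both knockdown values were lower, and the log2 fold change was -0.12 (SE 0.08, adjusted p 0.878 by edgeR's quasi-likelihood test). Per kb, levels ran from 0.582 CPM for Eml3, which in human cells recruits augmin to the spindle, to 411.5 CPM for Tacc3, a spindle protein that Aurora A phosphorylates.

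Components of the acentriolar organising centres had 9 of 9 genes tested, with 4 above 0, 5 below and a median of -0.01. Ninl, a ninein-like centrosomal protein gene, had the smallest p and the lowest level, 0.602 CPM per kb. It had 307 and 140 counts in knockdown libraries, against 116 and 26 counts in control libraries. All libraries differed widely, at a log2 fold change of 1.79 (SE 0.74, 95% interval 0.19 to 3.39). Its adjusted p was 0.835 in edgeR's quasi-likelihood test. Pcnt, pericentrin, which organises these centres, had the highest level, 47.1 CPM per kb, and a log2 fold change of -0.01 (SE 0.07).

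**Figure D4:**
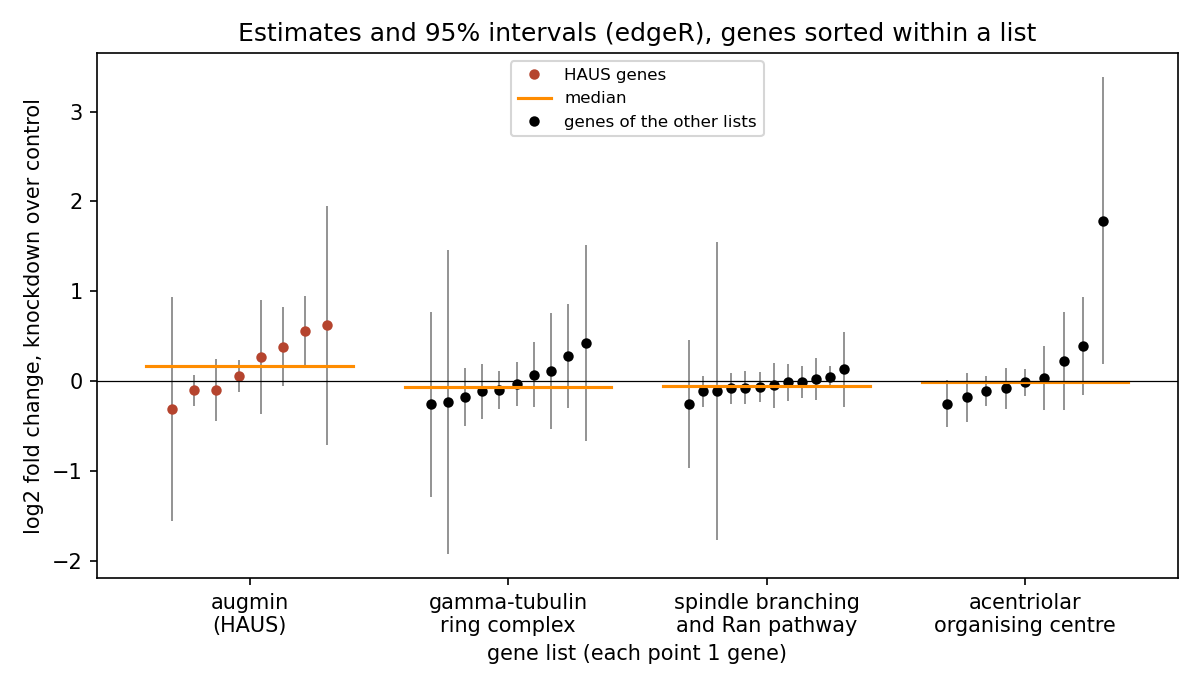
Log2 fold change (knockdown over control) and 95% interval from edgeR for the genes of 4 lists, sorted within a list, with the median of each list as an orange line. The medians are 0.16 for the HAUS genes (red; 0.06 without Haus1, and -0.013 to 0.584 with a library left out) and -0.07, -0.05 and -0.01 for the other lists (black), and the isolated high point is Ninl.

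The genes most like Haus1 over the 4 libraries are named as a description, since the values of Haus1 chose the set. Likeness was the root mean square difference of log2 CPM values, each gene centred on its own mean, over 8429 other genes with a mean of at least 10 CPM. The 5 nearest were Aire, a transcriptional regulator known from the thymus, Stat4, a transcription factor of cytokine signalling, Tln2, a talin of cell adhesion, Rmc1, a regulator of a Rab7-activating complex, and Zscan18, a zinc finger gene. Their differences from Haus1 lay between 0.0271 and 0.0352 on the log2 scale. Aire had 21.7 and 22.4 CPM in knockdown oocytes, against 15.2 and 15.7 CPM in control oocytes. Stat4 had 35.7 and 36.2 CPM in knockdown oocytes, against 23.2 and 25.2 CPM in control oocytes. Neither passed the test, and edgeR's adjusted p was 0.835 for both. Among the HAUS genes, Haus8 was nearest with a difference of 0.152 and ranked 287th, then Haus4 with 0.245 (1870th), Haus7 with 0.268 (2598th), Haus6 with 0.323 (4604th) and Haus3 with 0.328 (4807th). Haus2 and Haus5 were below the level limit and were not compared. With 4 libraries, such likeness holds little more than the difference between the groups.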

How the data were processed

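Counts per gene were deposited by the authors as whole numbers for 4 libraries, without normalization. Per the file headers, the table lists gene symbol, exon coordinates, strand and summed exon length, as featureCounts does. Per the submitters' processing notes, the build was mm10 and the tools were featureCounts 2.0.0, STAR 2.7.5b, DESeq2 1.28.1 and Trim Galore 0.6.4, with no roles given. Strand use and the handling of multiple alignments are not stated there, which bears on overlapping genes. Per the labels' protocols, RNA was poly(A)-selected. Groups and replicate numbers came from the titles. Nothing says that replicates came from separate animals, and the p-values therefore reflect library-to-library spread alone, which may be technical.

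Of 55453 genes, 15868 passed filterByExpr (defaults: a count of 10, a total of 15). Counts were fitted in R 4.3.3 with edgeR 4.0.16 (TMM factors 0.991 to 1.008, estimateDisp, glmQLFit with robust = TRUE and the bias-adjusted deviances, glmQLFTest, two-sided) on group alone, and p-values were adjusted by Benjamini-Hochberg over every tested gene, with a threshold of 0.05. Intervals of 95% used the t quantile and an SE from the F statistic. An exact permutation test of 1 gene over 6 arrangements cannot go below 0.333, so none is given. A chi-square of counts within replicate pairs gave 33.1 per degree of freedom for the knockdown pair and 39.0 for the control pair, so neither was 1 library in 2 copies. The fits were tested on simulated data. Alternatives were other scaling factors and filters, a replicate block, DESeq2 1.42.0, limma-voom (limma 3.58.1), the legacy quasi-likelihood fit and each library left out. The members, lists and tests were chosen with earlier results of these data known. By rule, the text names Parp12, the HAUS genes, genes whose exons overlap them, for each list the member with the smallest p and the highest and lowest level per kb, and the 5 genes most like Haus1. Nedd1 and the markers Gdf9, Figla, Zp1, Nr5a2, Cyp19a1, Kitl, Cyp11a1, Star and those at 0 counts were named after their values were seen. RefSeq promoter windows were used for 6 of the 8 HAUS genes, and the others are not reported here.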

Additional observations from a re-analysis of the deposited data

How the results depend on the processing

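Of 188 combinations of a result and an alternative, 172 kept their direction and their side of the threshold, or moved by less than the limit set for them. This share does not measure how steady the estimates were. It includes counts of called genes that stayed at 0 in fits that called few genes at all. Haus2 was counted as kept in all 12 alternatives, although its estimate moved widely. The count of genes called over all was 1 in the edgeR fit described, 8 with at least 1 CPM required in both libraries of a group, 305 with DESeq2 and 0 with limma-voom, and 1 to 2 when a library was left out. HAUS genes called were 0, except 1 (Haus1) with DESeq2, where its log2 fold change was again 0.55. The median of the HAUS genes was 0.163, 0.182 with limma-voom, and -0.013 to 0.584 when a library was left out. Haus5 ran from -0.893 to 0.583 and Haus7 from -0.039 to 0.628 when a library was left out. Haus2 ran from 0.268 to 0.950. Haus5 and Haus7 changed sign only there, Haus5 without control replicate 2 and Haus7 without control replicate 1. Parp12 kept its direction in all 12 alternatives, with a log2 fold change of -7.73 and an adjusted p of 0.28 with limma-voom. With the longest coding transcript as length, 4 of 8 HAUS genes kept their rank. The share of Haus1 in the HAUS sum differed by 0.854 percentage points between knockdown and control on the summed exon length, by 1.946 in raw counts and by 2.771 on the coding length. The cause of these shifts was not tested, apart from the lengths, which follow from the divisor used.

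Replicate numbers are shared between groups, but with 2 pairs and a correlation of 0.008 between same-numbered deviations nothing shows that they pair the libraries. With the number as a replicate block, edgeR called 1 gene and 0 HAUS genes, the HAUS median was 0.167 and Haus1 had a log2 fold change of 0.55 (adjusted p 0.942 by edgeR). Haus2 and Haus5 had the fewest counts, 114 to 395 a library, and the largest SEs, 0.62 and 0.58. The part of depth in these was not tested.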
